A study of Mus musculus with 6 samples.

Results

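Peaks of accessible chromatin called in crypts that lack Arid3a and not called in WT crypts numbered 2328. They were chosen by the calls alone. The 6 peak lists of the study, 1 for each sample, were merged on chromosomes 1 to 19, a single shared base being enough, and a consensus peak was kept when at least 2 of 3 cKO lists and 0 of 3 WT lists held it. These cKO-mainly peaks made up 3.33% of 69957 consensus peaks, and the mirror set, called in at least 2 of 3 WT lists and 0 of 3 cKO lists, held 874 peaks (1.25%). Because the choice used the calls, the excess of 2328 over 874 is a description and carries no test.

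The samples were crypts of the mouse intestine, the pits of the epithelium in which stem cells sit and progenitors divide, assayed by ATAC-seq, in which a transposase cuts and tags open DNA. The cKO group (n = 3) carried floxed Arid3a with VillinCre-ERT2, a tamoxifen-inducible recombinase driven by a promoter of the intestinal epithelium, and the WT group (n = 3) kept Arid3a. All animals, WT included, received tamoxifen on 3 consecutive days, and crypts were taken 1 month after its first dose. Strain, age and sex are not given in the sources used here, and peak calls cannot show the deletion itself.

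The lists held 45557 to 57140 peaks in cKO and 39773 to 54010 in WT on these chromosomes, and list length differed as much within a genotype as between them. Each deposited peak has a fold and a −log10 q. The fold is the pileup of aligned fragments at its summit (counted as reads here) over the local background, each with a small constant added. Both columns come from whole pileups, so the pileup could be solved, and the commonest background of a list, a measure of its depth, was 1.75 to 2.29 reads in cKO and 1.82 to 2.11 in WT. Peaks covered the promoters of 6 of 8 crypt epithelial markers in all 6 lists (Muc2 in 0 lists, Lyz1 in 2 WT and 3 cKO lists) and of 0 of 4 leukocyte markers in any list. Of 4 stromal and endothelial markers, Pdgfra and Col1a1 had a promoter peak in all 6 lists, and Pecam1 and Cdh5 in 0. In bulk crypts, a site open in fewer cells and a site less open in each cell cannot be told apart.

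ARID3A is a DNA-binding protein of the ARID family, whose domain favors A+T-rich sites. In crypts, cells leave the base, divide and commit to absorptive or secretory fates. Enhancers, which lie mostly in introns and between genes, are in general more cell-type specific than promoters. HNF4 factors drive the absorptive program, and CTCF is an architectural protein that anchors chromatin loops.

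The sequence under 5 of the strongest cKO-mainly peaks is shown so that the letters counted further on can be seen in place. Each run covers the summit and 100 bases on each side of it, on the plus strand of GRCm38. Capitals mark an ARID3 core (ATCAAA or ATTAAA), an HNF4 site (CAAAGTCCA or CAAAGTTCA) or the CTCF consensus, on either strand. Clec2g, the strongest in a gene body among members called in 3 lists, holds none of these letters.
Clec2g, chr6:128941887-128942087: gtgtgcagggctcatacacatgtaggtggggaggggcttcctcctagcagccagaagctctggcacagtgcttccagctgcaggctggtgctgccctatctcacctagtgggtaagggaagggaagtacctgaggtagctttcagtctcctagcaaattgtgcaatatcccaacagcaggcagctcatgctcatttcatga
Tfap4, chr16:4567962-4568162: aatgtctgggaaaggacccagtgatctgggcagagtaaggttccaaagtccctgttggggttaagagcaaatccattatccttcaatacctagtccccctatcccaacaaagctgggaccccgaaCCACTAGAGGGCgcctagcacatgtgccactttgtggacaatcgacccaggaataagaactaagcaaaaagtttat
Pde3b, chr7:114362275-114362475: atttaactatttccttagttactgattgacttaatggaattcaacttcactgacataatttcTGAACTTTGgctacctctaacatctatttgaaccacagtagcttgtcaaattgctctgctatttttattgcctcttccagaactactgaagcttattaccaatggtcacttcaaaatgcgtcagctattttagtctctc
Fmn1, chr2:113431017-113431217: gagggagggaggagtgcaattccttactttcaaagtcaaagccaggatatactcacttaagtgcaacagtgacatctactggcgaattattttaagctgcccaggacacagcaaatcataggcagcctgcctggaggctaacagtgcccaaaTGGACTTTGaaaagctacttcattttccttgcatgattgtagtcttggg
Tlk1, chr2:70764854-70765054: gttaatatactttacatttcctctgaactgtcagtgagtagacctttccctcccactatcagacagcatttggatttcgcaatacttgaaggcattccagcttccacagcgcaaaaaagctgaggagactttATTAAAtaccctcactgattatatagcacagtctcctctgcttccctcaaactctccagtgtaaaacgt

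Only 323 cKO-mainly peaks (13.9%) were called in all 3 cKO lists. The pair cKO 1 and cKO 3 alone supplied 1453 (62.4%), the pair cKO 1 and cKO 2 supplied 411 (17.7%), and the pair cKO 2 and cKO 3 supplied 141 (6.06%). The cKO 1 list was the longest of the 3 cKO lists and cKO 2 the shortest, so the composition followed list length, and its part in the result was not tested. The mirror set had the same shape, with 582 of its 874 peaks (66.6%) called in WT 2 and WT 3, the longer WT lists, and 79 (9.04%) in all 3. With each list cut to the length of the shortest, the counts were 1299 and 924. They were 465 and 2218 without cKO 1, 1778 and 1122 without cKO 2, and 733 and 1263 without cKO 3. In these the rule asks for 2 of 2 cKO lists but 2 of 3 WT lists. They were 2640 and 658 without WT 1, 3516 and 217 without WT 2, and 5377 and 148 without WT 3. In these it asks for 2 of 2 WT lists but 2 of 3 cKO lists. The 323 members in all 3 cKO lists stood against 79 mirror peaks in all 3 WT lists. Both sides meet the same demand there, as in the main rule and with lists of equal length. The WT lists include the shortest of all, WT 1 with 39773 peaks, where the shortest cKO list had 45557. The part of list length in this count was not tested.

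**Figure D1:**
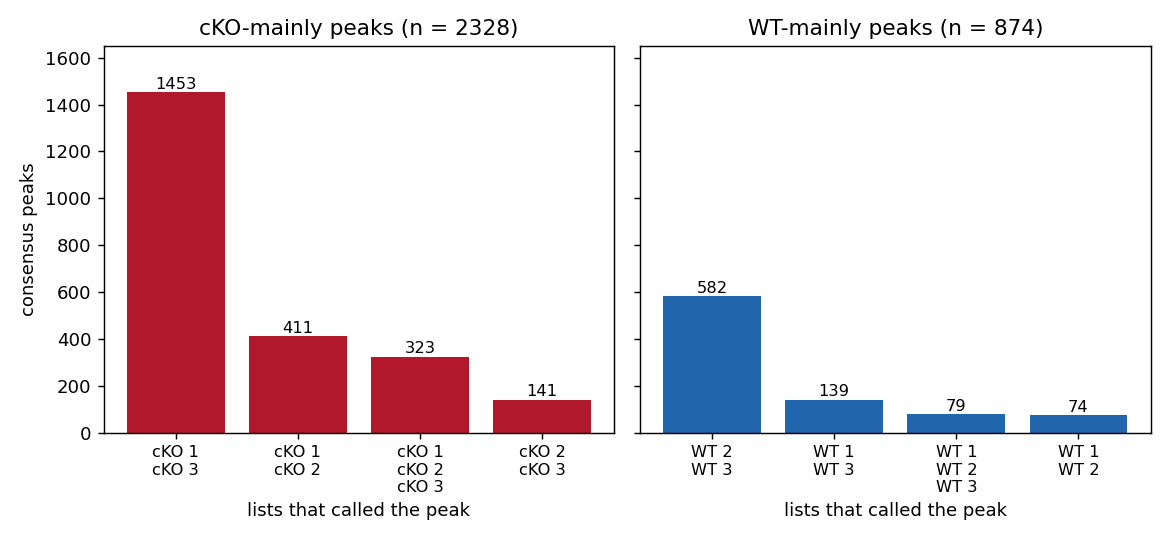
Number of consensus peaks (vertical axis) by the lists that called them (horizontal axis), for the 2328 cKO-mainly peaks on the left and the 874 WT-mainly peaks on the right. The pair of cKO 1 and cKO 3 holds 1453 peaks, and 323 were called in all 3 cKO lists.

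These were weak peaks in every list that held them. Their median fold was 4.26 in cKO 1, 3.87 in cKO 2 and 4.09 in cKO 3, against 6.22, 5.87 and 5.98 over the whole lists. Their median −log10 q was 5.88, 3.58 and 4.96, against 19.5, 12.5 and 16.8 over the lists. At the summit they had a median pileup of 18, 13 and 16 reads, where the lists had 45, 29 and 40.0. A peak was called from 8 or 9 reads upward wherever the local background was at the commonest value of its list, in cKO and WT alike. The lower quartile of the members' pileups was 14, 11 and 13 reads in cKO 1, 2 and 3. Only 33.6%, 16.7% and 29.7% of their peaks lay at that background, and the floor of the others was not determined.

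Absence from the WT lists is absence of a call. At the commonest background, the lowest fold called was 3.22 in WT 1, 3.19 in WT 2 and 2.99 in WT 3. Of the 2328 peaks, 1821 (78.2%) had a fold above 3.22 in each cKO list that called them, 880 (37.8%) had a fold above 4 and 229 (9.84%) a fold above 5. In the mirror set, 196 of 874 peaks (22.4%) had a fold above 4 in each WT list that called them. The WT read depth at these sites was not analysed here, so a site just under the WT threshold and a closed site cannot be told apart.

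Ranked by fold within its own list, where 100 is the strongest, the best peak of each member had a median percentile of 29.3 (25th to 75th percentile of members, 17.7 to 41.7). The median was 36.8 for members in 3 cKO lists and 28.2 for those in 2. It was 22.6 in the mirror set and 77.6 for the 32147 peaks called in all 6 lists. In lists of equal length, which lack the weakest peaks of the longer lists, the members had a median percentile of 51.1 in the deposited lists. Above the 50th percentile lay 309 members (13.3%), and only 3 lay above the 90th. Of the peaks just outside the rule, those called in 1 cKO and 0 WT lists (8032) were weaker, with a median percentile of 15.1 (8.11 to 24.6) and 1.82% above the 50th, and those called in 2 cKO and 1 WT lists (3121) had a median of 33.7. As examples at the threshold, the member in an intron of Ralgps2 had a fold of 3.96 in cKO 1 and 3.78 in cKO 3. A peak just outside, in an intron of Stat5b, had a fold of 3.71 in cKO 1 and was called in no other list.

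By the lowest percentile over the lists that called it, by which members are ordered here, the strongest member resembled mitochondrial DNA. This peak, at chr1:24612793-24613605, 25.6 kb upstream of Col19a1, had a fold of 42.0 in cKO 1, 52.7 in cKO 2 and 40.2 in cKO 3. Of the 31-base words in it, 96.0% also occur in the mitochondrial genome, a property shared by 1 member, by 0 peaks of the mirror set and by 2 of all consensus peaks. Reads of mitochondrial and nuclear origin cannot be told apart there. The nearest WT peak was 64.3 kb away, and whether all lists were filtered alike at this site cannot be told from the calls.

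Among members called in 3 lists, Clec2g ranked next. The peak at chr6:128941658-128942325 lay in an intron of Clec2g, a C-type lectin-like gene of the natural killer gene complex, 7.58 kb downstream of its start. Its fold was 12.3 in cKO 1, 8.37 in cKO 2 and 11.4 in cKO 3, from pileups of 57, 22 and 37 reads. These were the 91.8th, 71.8th and 92.7th percentiles of their lists, and no WT list held a peak closer than 5.08 kb. It was the only member found at the 12 genes of the Clec2 and Klrb1 lectin group that were annotated, 1 of 64 consensus peaks there (1.56%, 0.276 to 8.33), where the mirror set had 2 (3.12%).

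The next members in 3 of 3 lists had lower folds. In an intron of Gulo, which encodes the last enzyme of vitamin C synthesis, 199 bp downstream of the start, the fold was 6.36 in cKO 1, 7.20 in cKO 2 and 5.93 in cKO 3. At Pde3b, a phosphodiesterase that breaks down cAMP, a peak 52.9 kb upstream of the start, in an intron of a non-coding gene, gave 7.61, 5.46 and 6.29 in cKO 1, 2 and 3. The cKO 2 value was the lowest of the 3 at Pde3b and the highest at Gulo.

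A peak 8.21 kb upstream of Tfap4, a basic helix-loop-helix factor, gave a fold of 6.86, 5.71 and 6.51 in cKO 1, 2 and 3. A peak 43.0 kb upstream of Irf2, an interferon regulatory factor, gave 7.70, 5.19 and 7.17. In an intron of Il16, a cytokine gene, the values were 6.45, 5.13 and 6.87. In an intron of Rbm33, an RNA-binding protein gene, they were 5.75, 5.46 and 5.35. Other members named by strength in 3 lists lay 664 kb from Zfp619 and 17.9 kb from Gm4841, with folds from 5.09 to 7.24.

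Members called in 2 of 3 cKO lists included some that were stronger than these. The peak at chr17:45645760-45646413, in an intron of Capn11, a calpain protease gene, had a fold of 15.6 in cKO 1 and 13.2 in cKO 3, from 72 and 54 reads, and was not called in cKO 2. All of its summit window was repeat-masked (100%), and read mapping in repeats was not tested. A peak 1.31 kb from Mrps21, a mitochondrial ribosomal protein gene, gave 11.3 in cKO 1 and 7.63 in cKO 3. In an intron of Fmn1, which encodes an actin-assembling formin, the fold was 7.91 in cKO 1 and 8.42 in cKO 3. In an intron of Tlk1, a chromatin-assembly kinase gene, it was 7.85 in cKO 1 and 6.92 in cKO 3. The peak in an intron of Apbb1ip, whose nearest coding start is that of Pdss1, was the exception among these 8, since cKO 2 (8.45) and cKO 3 (7.54) held it and cKO 1, the longest list, did not. The other 3, near Fam3c, Cast and Gm35549, had folds from 6.92 to 7.61 in cKO 1 and cKO 3. Absence from cKO 2, the shortest cKO list, was thus found at 7 of the 8. Among all 2005 members called in 2 lists, it was found at 1453.

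**Figure D2:**
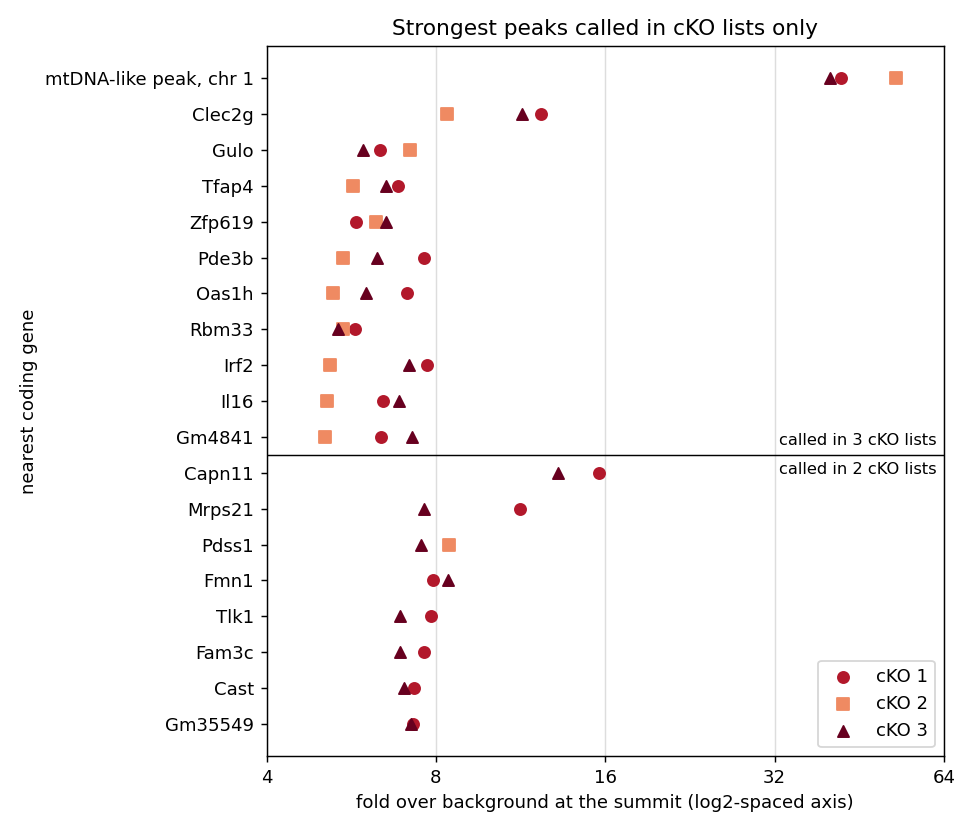
Fold over background at the summit (horizontal axis, log2-spaced) in each cKO list for the strongest members called in 3 lists (above the line) and the 8 strongest called in 2 (below it), named by the nearest coding gene. The mtDNA-like peak lies at 40.2 to 52.7, the Clec2g peak at 8.37 to 12.3 and the Capn11 peak at 13.2 and 15.6, and a missing symbol means that the list held no peak.

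Members lay away from promoters. The summit was in a promoter, from 1000 bp before to 100 bp after an annotated start, for 179 members (7.69%, 95% Wilson interval 6.68 to 8.84, which like the others here covers counting error only). It was in a gene body for 1349 (57.9%, 55.9 to 59.9) and between genes for 800 (34.4%, 32.5 to 36.3). Introns alone held 1178 (50.6%), UTRs 73, coding exons 37 and exons of other transcripts 61. Of the peaks called in all 6 lists, 36.6% were in promoters and 38.5% in gene bodies, where members had 7.69% and 57.9%. All consensus peaks had 21.3% and 48.2%, and those at or below the 50th percentile of fold had 9.17% and 57.2%, with 33.7% between genes, a split near that of the members.

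The mirror set was placed much like the members. Its promoter share was 8.81% (7.11 to 10.9), its gene-body share 53.0% (49.7 to 56.3) and its intergenic share 38.2% (35.1 to 41.5). These intervals overlap those of the members, which does not show that the shares are equal, and the differences were not tested. Low promoter and high gene-body shares were therefore common to peaks called in part of the lists on either side. Among members in all 3 cKO lists the split was 6.81% promoter, 56.7% gene body and 36.5% intergenic, and among those in 2 lists 7.83%, 58.2% and 34.0%. With protein-coding genes only, the gene-body share of the members was 53.0%.

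**Figure D3:**
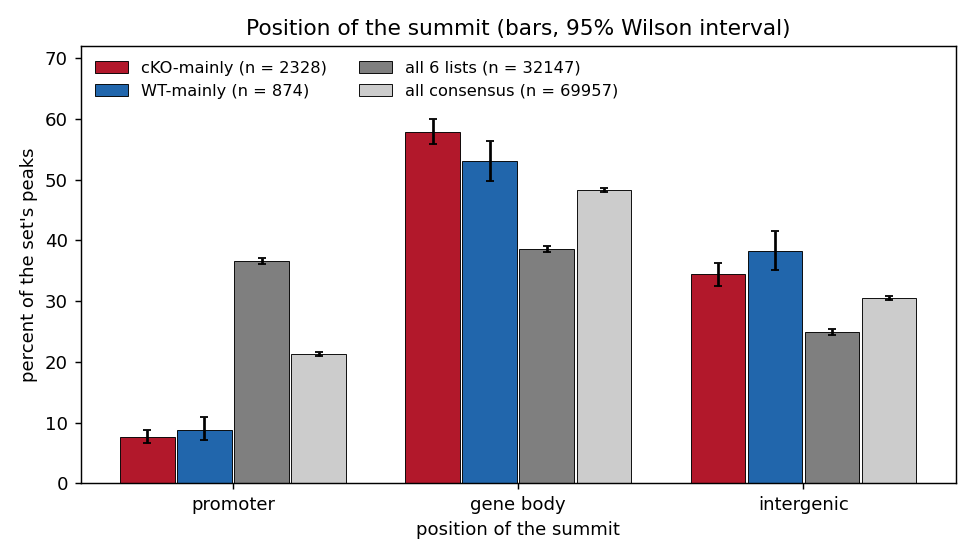
Percent of each set's peaks (vertical axis) with the summit in a promoter, a gene body or between genes (horizontal axis), with 95% Wilson intervals as error bars. Members (dark red) and the mirror set (blue) have promoter shares of 7.69% and 8.81%, against 36.6% for peaks called in all 6 lists.

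Position made little difference to the strength of a member. The median percentile was 27.0 in promoters, 28.2 in gene bodies and 31.6 between genes, with median folds of 4.49, 4.56 and 4.72. Over all consensus peaks promoters were far stronger, at a median percentile of 82.7 against 40.6 in gene bodies and 44.8 between genes. Promoter members were thus weak for promoters. In the mirror set the promoter median was 13.9. Intergenic members had the largest share above the 50th percentile, 128 of 800 (16%), against 161 of 1349 (11.9%) in gene bodies and 20 of 179 (11.2%) in promoters.

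**Figure D4:**
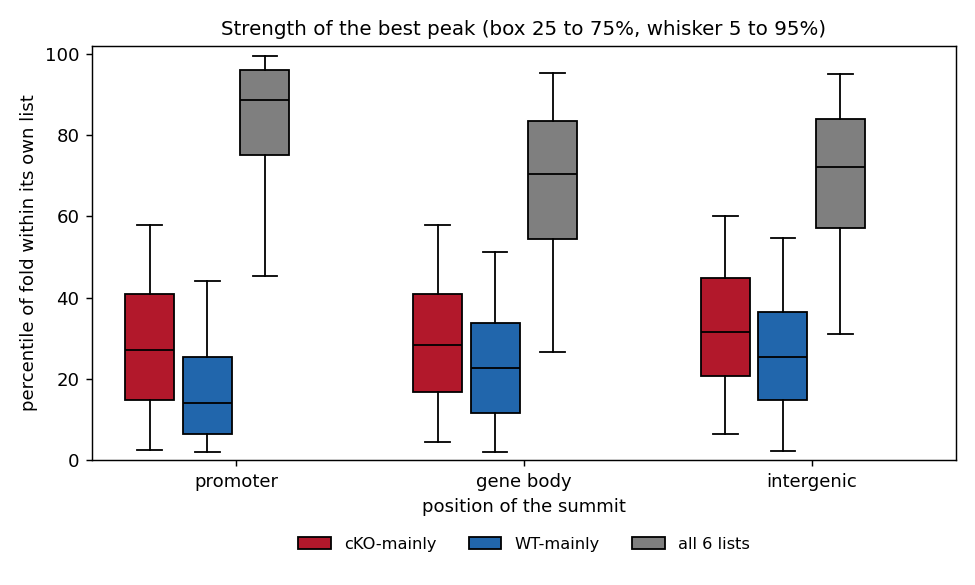
Percentile of fold within its own list (vertical axis) of the best peak, by position of the summit (horizontal axis), for cKO-mainly peaks, WT-mainly peaks and peaks called in all 6 lists. Boxes span the 25th to 75th percentiles over peaks with the median as a line and whiskers the 5th to 95th, and the medians of the members lie between 27.0 and 31.6 in every class.

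The 8 strongest members at the start of a protein-coding gene had folds in cKO 1 from 5.18 to 7.63, where the best fold of the 179 promoter members had a median of 4.49. At Oas1h, of the oligoadenylate synthetase family of antiviral enzymes, a peak 29 bp upstream of the start had a fold of 7.12 in cKO 1, 5.25 in cKO 2 and 6.01 in cKO 3. Of the 8 named promoter members it alone was called in all 3 lists. At Gm35549 the fold was 7.27 in cKO 1 and 7.23 in cKO 3, 47 bp upstream of the start. At Polr3e, a subunit gene of RNA polymerase III, it was 6.22 and 5.55, and at Ppil2, which encodes a cyclophilin-like protein, 5.56 and 5.36. At Pga5, which encodes a pepsinogen, the stomach protease precursor, it was 7.63 and 5.35, and at Gpat4, an enzyme gene of glycerolipid synthesis, 5.18 and 5.80, each in cKO 1 and cKO 3. Ggta1, which encodes the enzyme that makes the alpha-gal epitope, gave 5.48 in cKO 1 and 5 in cKO 2, and 1700069L16Rik gave 5.48 in cKO 1 and 5.98 in cKO 3.

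Members stood apart from constant peaks. The median distance to the nearest peak called in all 6 lists was 11.9 kb, against 8.72 kb in the mirror set, and 119 members (5.11%) lay within 1 kb of one, against 77 of 874 (8.81%) in the mirror set. A WT peak lay within 1 kb of 293 members (12.6%), and a cKO peak within 1 kb of 159 mirror peaks (18.2%). The median distance to a coding start was 13.9 kb, against 13.5 kb in the mirror set, 4.49 kb for peaks in all 6 lists and 9.54 kb over all consensus peaks. For 1856 members (79.7%) a coding start lay within 50 kb, and for 235 (10.1%) the nearest was more than 100 kb away.

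The sequence under members held more A and T on average than that of the other sets. The A+T content of the summit window averaged 51.8% ± 7.36 (SD over peaks), against 49.9% in the mirror set, 43.6% in peaks called in all 6 lists and 47.3% over all consensus peaks. Within introns alone it was 52.3% for members and 50.7% over all intronic consensus peaks. At or below the 50th percentile of fold, the means of members (51.5%) and of all consensus peaks also lay closer together than over all strengths. Above it they were 53.4% and 44.6%. An ARID3 core lay in 520 members (22.3%), against 132 mirror peaks (15.1%) and 16.1% of all consensus peaks. Part of the gap to all consensus peaks went with strength, since most members were weak. At or below the 50th percentile of fold the core lay in 21.9% of members, 15.4% of mirror peaks and 18.4% of all consensus peaks. Above it the shares were 24.9%, 10.5% and 13.8%. In introns the shares were 23.1% of members, 17.5% of mirror peaks and 19.4% of all consensus peaks. A short A+T-rich core is met more often where A and T are common, and the part of base composition was not tested.

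Sites of other factors divided differently. An AP-1 site (TGACTCA or TGAGTCA) lay in 146 members (6.27%), against 124 mirror peaks (14.2%) and 8.11% of all consensus peaks. An HNF4 site lay in 69 members (2.96%), 15 mirror peaks (1.72%) and 2.52% of all consensus peaks. The members at Pde3b and Fmn1 carry it in the sequences printed here. At least 50% of the window was repeat-masked in 161 members (6.92%), 75 mirror peaks (8.58%) and 5.38% of all consensus peaks, and 317 members (13.6%) held no CpG.

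The CTCF consensus was most frequent in the stronger members. It lay in 117 members (5.03%, 4.21 to 5.99), 29 mirror peaks (3.32%, 2.32 to 4.72), 1.87% of peaks called in all 6 lists and 3.22% (3.09 to 3.35) of all consensus peaks. Above the 50th percentile of fold it lay in 28 of 309 members (9.06%, 6.34 to 12.8), where all consensus peaks of that strength had 2.95% (2.78 to 3.14). Outside promoters the shares at that strength were 25 of 289 members (8.65%, 5.93 to 12.5) and 3.89% (3.64 to 4.15) of all consensus peaks. Below it the consensus lay in 89 of 2019 members (4.41%, 3.60 to 5.39) and 3.48% of all consensus peaks. In the mirror set 1 of 57 stronger peaks held it (1.75%, 0.310 to 9.29), an interval that overlaps that of the members. With the outermost C of the consensus left free, the stronger members had 10.7% (7.71 to 14.6), the stronger mirror peaks 5.26% (3 of 57, 1.81 to 14.4) and all stronger consensus peaks 3.99%. Among the members named by strength or promoter, those near Tfap4 and 1700069L16Rik held it. This consensus was looked for after the sequences of named members had been read, so its shares are a description.

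Few loci collected more than 1 member. The 1856 members with a coding start within 50 kb were nearest to 1654 genes, of which 1483 had 1 member, 147 had 2 and 24 had 3 or more. In the mirror set 6 genes had 3 or more, and none had over 3. The count of 24 rests on single lists, since it was 1 without cKO 1, 2 without cKO 3, 11 without cKO 2, 68 without WT 2, 150 without WT 3 and 6 with lists of equal length. Pde4d, a cAMP phosphodiesterase gene of 1504 kb, had the most, 5 members among 47 consensus peaks (10.6%). Plekhm3 followed with 4 of 13 (30.8%), then Mrtfb, a coactivator gene of serum response factor, with 4 of 18 (22.2%). Nav2 had 4 of 24, the chromatin remodeler gene Chd7 had 4 of 28 and the transcription factor gene Mecom had 4 of 36. Col9a1, which encodes a collagen IX chain, had 3 of only 4 (75%), and Akap1, an anchor of protein kinase A, had 3 of 11 (27.3%). Except at Nav2, which had 1, these 8 genes had 0 mirror peaks. Mirror peaks were only 1.25% of all consensus peaks, so few were to be met at any gene. Members were 3.33% of all consensus peaks, and these 8 genes were picked for their number of members, which raises their shares.

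The members of a recurrent gene were scattered and unequal. The 5 at Pde4d all lay in its introns, with a fold in cKO 1 of 3.65, 7.30, 4.87, 6.39 and 5.43 from the gene's 5′ end onward. Of these, cKO 2 held the members with folds of 3.11, 4.68 and 3.48 there, cKO 3 held 3, and only the last was called in all 3 lists. At Chd7 the cKO 1 folds were 3.55, 2.76, 3.21 and 6.25, and 2 of the 4 were called in all 3 lists. At Col9a1 the 3 intronic members had folds of 5.48, 3.82 and 4.32 in cKO 1, 2 of them were also called in cKO 3 and 1 in cKO 2, and the nearest WT peak was 4.14 to 16.8 kb away. At Mecom the nearest WT peak was 0.0850 to 3.90 kb away.

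Chaining members that lay within 50 kb of each other gave a like picture. Of the chains, 1857 were a single member, 185 had 2, 28 had 3, 3 had 4 and 1 had 5. The chain with most members lay in introns of Disc1, a scaffold protein gene known from the brain, at chr8:125163469-125236641, where 5 of 10 consensus peaks over 73.2 kb were members and 1 was called in all 6 lists. Their folds in cKO 1 were 3.34, 3.35, 3.65, 3.50 and 5.48. The next chains lay in Nr6a1, a nuclear receptor gene (4 of 6 consensus peaks over 76.1 kb), in Mrtfb (4 of 7), around Gcnt3 and Fam81a (4 of 11) and in Col9a1 (3 of 3). Gcnt3 encodes a mucin-type glycosyltransferase of the gut, and 6 of the 11 peaks around it were called in all 6 lists. None of the members in these 5 chains was called in all 3 cKO lists. The chains were picked for their number of members, and each runs from its first member to its last. Their shares of members are therefore high by construction, beside 3.33% over all consensus peaks.

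Members were spread over all chromosomes analysed. Their share of a chromosome's consensus peaks ran from 2.72% (2.24 to 3.30) on chromosome 10, which carries Arid3a, to 4.23% (3.64 to 4.91) on chromosome 9, with 163 of 3854 peaks. Near Arid3a itself, 3 members lay within 50 kb of a start of the gene but at its neighbors. They were in a coding exon of Prtn3 (fold 3.81 in cKO 1 and 3.90 in cKO 2), in an intron of Med16 (4.60 in cKO 1 and 3.47 in cKO 3) and in the promoter of Grin3b (2.92 in cKO 1 and 2.80 in cKO 2).

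Genes of the crypt and of other cells were then read for members in the gene or within 50 kb of a start, in 10 lists of 262 genes. The share of members among the consensus peaks of a list is to be read against 3.33% over all consensus peaks. Peaks called in all 6 lists, 46.0% of the consensus peaks, cannot be members, and their number at each list of genes was not counted. Of consensus peaks at or below the 50th percentile of fold, 2019 of 35365 were members. The part of peak strength in these shares was not tested. A member within 50 kb of a start can lie in or nearer to a neighboring gene. Of 36 enterocyte and absorption genes, 9 had a member, 10 of 392 consensus peaks (2.55%), and 1 had a mirror peak. Mttp, which loads lipid onto chylomicrons, had 2. At Alpi, the intestinal alkaline phosphatase gene, a peak 11.5 kb upstream had a fold of 5.84 in cKO 1 and 6.29 in cKO 3. It held an ARID3 core, as did members of this and other lists, such as those counted for Vil1, Myc, Tcf7l2 and Arid5b. Others, such as those for Slc7a9 and Neurog3, held none. The members counted for Vil1, Cubn and Slc7a9 lay in introns of the neighboring genes Usp37, Trdmt1 and Cep89, with folds from 3.96 to 5.86.

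Secretory genes had members at a similar rate. Of 34 such genes 8 had a member, 9 of 228 consensus peaks (3.95%). At Neurog3, the factor that commits cells to the enteroendocrine fate, a peak 252 bp upstream of the start had a fold of 4.26 in cKO 1 and 4.89 in cKO 3, with the nearest WT peak 21.3 kb away. At Pax4, a factor of enteroendocrine differentiation with 2 members, a peak 11.4 kb upstream had 5.48 and 5.94. The others were Cck, Chgb, Defa24, Itln1, Lyz1 and Tph1. The member counted for Chgb lay in an intron of Shld1, and that for Itln1 was nearest to the start of Alyref2.

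Of 23 crypt base stem cell and Wnt genes 7 had a member, 8 of 322 consensus peaks (2.48%). At Myc, a Wnt target that drives growth, a peak 30.2 kb downstream of the start had a fold of 5.48 in cKO 1 and 5.98 in cKO 3. An intronic peak of Ephb2, a receptor that sorts cells along the crypt axis, had 5.60 and 4.75. At Nkd1, a Wnt feedback inhibitor, the fold was 4.26 and 3.63 in the same lists. Tcf7 had 2 members, and Ephb3, Rnf43 and Znrf3 had 1 each. The member counted for Ephb3 lay between genes, nearest to the start of Teddm3. Lgr5 and Olfm4 had none.

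Of 24 cell cycle genes 6 had a member, 6 of 218 consensus peaks (2.75%), at Ccnd2, Cdk6, Cdkn1b, Mcm2, Pcna and Plk1. The member counted for Pcna lay in an intron of Cds2, and that for Mcm2 was nearest to the start of Tpra1. Intestinal transcription factor genes had the lowest share of all, 5 of 413 consensus peaks (1.21%, 0.518 to 2.80), at Creb3l3, Gata5, Nr5a2, Tcf7l2 and Vdr, and 5 mirror peaks. The 4 named there had low folds, from 2.45 to 3.75, but not all had low pileups. In cKO 1 these were 51 reads at Gata5, 45 at Nr5a2, 24 at Tcf7l2 and 11 at the Creb3l3 peak, in the promoter of Sgta. The median of members there was 18. Genes of AP-1 subunits and ARID-domain proteins had 5 of 291 (1.72%), at Arid3a (3), Arid5b and Fosb.

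Genes of cells outside the epithelium were read in the same way. Leukocyte genes had 5 of 152 consensus peaks (3.29%), at Ms4a1 (2), Cd3e, Itgam and Lyz2, which is near the share over all consensus peaks. The members counted for Ms4a1 were nearest to the start of its neighbor Ms4a5, and that for Lyz2 to the start of Cpsf6. Stromal, endothelial and neural genes had 8 of 141 (5.67%, 2.90 to 10.8), with 2 each at Pecam1 and Tubb3 and 1 each at Acta2, Lyve1, S100b and Vim, the last being the Trdmt1 peak also counted for Cubn. The Tubb3 member that was named lay in an intron of Def8. Both Pecam1 members lay in introns of this endothelial adhesion gene, with folds of 5.09 and 5 in cKO 1 and 4.65 and 4.46 in cKO 3, although its promoter had no peak in any list. Genes of neuronal adhesion and synapse had the highest share, 8 of 112 (7.14%, 3.66 to 13.5) at 5 of 34 genes, which were Ptprd (3), Tenm4 (2), Csmd3, Ptprt and Rbfox1. In introns of the receptor phosphatase gene Ptprd, a member had a fold of 5.78 in cKO 1 and 5.66 in cKO 3 and another 6.39 and 5.04, and in an intron of Rbfox1, an RNA-binding protein gene, a member had 7.14 in cKO 1 and 4.76 in cKO 2. Within 10 kb of a start or in the gene body, 5 of 34 neuronal genes but 1 of 23 stromal, endothelial and neural genes and 2 of 36 enterocyte genes had a member. Mirror peaks made up 1.42% and 0.893% of the last 2 lists. Whether cells of other types were more frequent in the cKO samples was not tested.

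The host gene of the 1061 intronic members in a coding gene had a median length of 104 kb, against 87.5 kb in the mirror set and 99.0 kb over all consensus peaks. Hosts over 500 kb held 7.35% of them, against 7.10% and 7.48%.

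How far such peaks recur in a sample that the choice did not use was read by leaving out 1 cKO and 1 WT list. Peaks called in both remaining cKO lists and in neither remaining WT list were looked up in the lists left out, in 9 ways. The left-out cKO list held 20.3% to 83.2% of them, with a mean of 51.9%, and the left-out WT list held 12.2% to 70.8%, with a mean of 40.3%. The cKO share was above the WT share in 6 of 9 ways. The shares followed the list left out, since cKO 1, cKO 2 and cKO 3 held 77.5%, 25.2% and 53.1% on average, and WT 1, WT 2 and WT 3 held 15.4%, 40.6% and 65.0%. The gap between the means, 51.9% against 40.3%, was smaller than the spread between the lists (SD 26.2 and 24.8 percentage points, n = 3).

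With each list cut to the length of the shortest by −log10 q, the spread narrowed. The left-out cKO list then held 40.0% to 60.3% of the chosen peaks, with a mean of 51.5% ± 8.44, and the left-out WT list 33.5% to 50.1%, with a mean of 40.8% ± 6.82 (SD over 3 lists). The cKO share was above the WT share in 8 of 9 ways, the exception being cKO 2 against WT 3 (44.4% and 47.4%). With the deposited lists the mirror choice gave 40.7% in the left-out WT list and 41.5% in the left-out cKO list, with the WT share above in 4 of 9 ways. With lists of equal length it gave 43.8% in the left-out WT list and 41.6% in the left-out cKO list, with the WT share above in 6 of 9 ways. The 9 ways share lists, so no p is given.

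**Figure D5:**
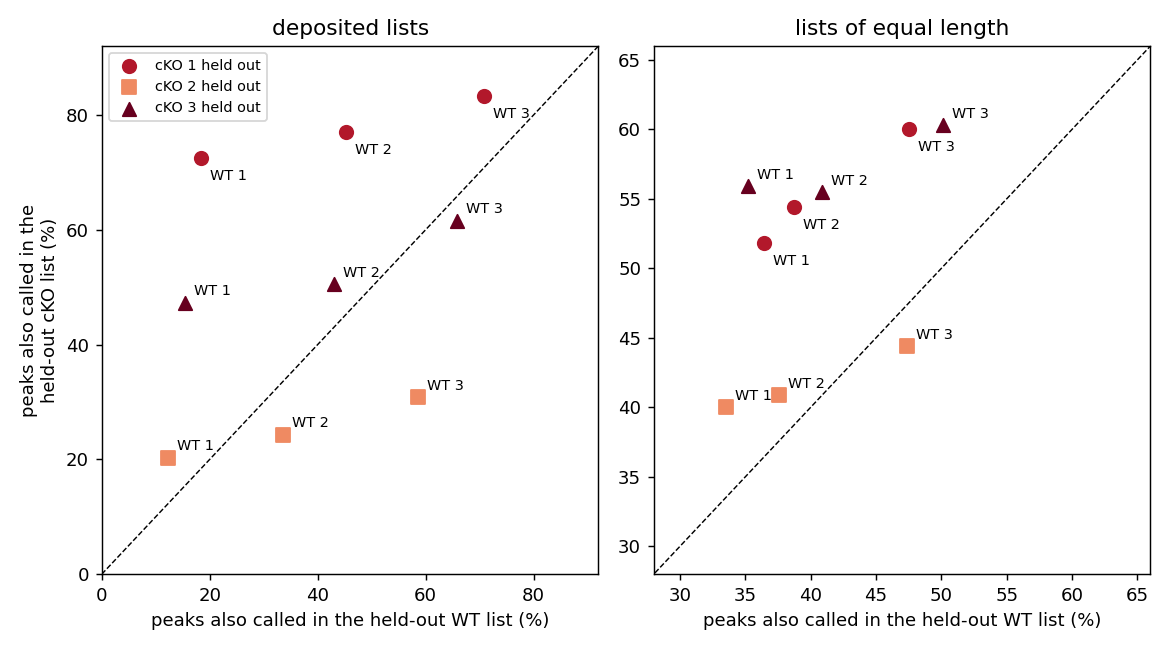
Share of peaks called in both remaining cKO lists and neither remaining WT list that was also called in the left-out cKO list (vertical axis, percent) and in the left-out WT list (horizontal axis, percent), with deposited lists on the left and lists of equal length on the right, on different scales. Each symbol is 1 of 9 ways, labelled by the WT list left out, and 6 lie above the dashed line of equal shares on the left and 8 on the right.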

How the data were processed

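ATAC-seq peaks had been called by the authors on each sample separately. Their pipeline trimmed reads, aligned them to GRCm38, removed blacklisted regions and called narrow peaks with MACS2. The deposited columns are a score, a fold (ratio of summit pileup to background, each with a small constant added), a −log10 p and a −log10 q. Reads were not used here, and the score was not analysed.

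Peaks on chromosomes 1 to 19 were merged with Python 3.11.15 and pandas 2.3.3 wherever 1 base was shared (811 to 1218 peaks per list lay elsewhere), and summits were placed on GENCODE M21 genes. Pileups were solved from −log10 p and the fold, taken as pileup plus 1 over background plus 1. Allowing 0.02 in −log10 p up to 300, they came out whole for 100% of peaks. Merging, the rule and positions were tested on simulated lists. Shares have 95% Wilson intervals. No p-value was computed, because the rule used the calls.

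Members, lists and motifs were chosen with earlier results of these data known. Named are the 12 strongest members in 3 lists and 8 in 2, by the lowest percentile over the lists that called them, 8 promoter members, 8 genes and 5 chains with most members, up to 4 members per gene list, and examples on either side of the rule. The CTCF consensus was chosen after sequences were seen. A result at 1 named member is not reported here. Replicate crypts are treated as separate samples.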

Additional observations from a re-analysis of the deposited data

Results flagged for a closer look

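Chromosome X was outside the merge on chromosomes 1 to 19. There, 50 consensus peaks were called in at least 2 of 3 cKO and 0 of 3 WT lists, against 15 in at least 2 of 3 WT and 0 of 3 cKO lists. They were 3.83% and 1.15% of 1306 consensus peaks on X, close to 3.33% and 1.25% on the chromosomes analysed. On chromosome Y, 0 of 23 consensus peaks met either rule.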

How the results depend on the processing

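The number of cKO-mainly peaks depended on single lists and on the demand set on a call. Over omissions of 1 list it ran from 465 without cKO 1 to 5377 without WT 3, with 733 without cKO 3 and 3516 without WT 2, and the mirror set ran from 148 without WT 3 to 2218 without cKO 1, with 217 without WT 2. Without a cKO list the rule needs 2 of 2 cKO against 2 of 3 WT calls, and without a WT list 2 of 2 WT against 2 of 3 cKO calls, so these counts are unequal by construction in either direction. The cKO-mainly peaks outnumbered the mirror set in 10 of 12 alternatives, the exceptions being those without cKO 1 and without cKO 3. The counts were 1778 and 1122 without cKO 2, and 2640 and 658 without WT 1. Genes with 3 or more members ran from 1 without cKO 1 to 150 without WT 3, with 2 without cKO 3, 11 without cKO 2 and 68 without WT 2. The gene-body share ran from 56.1% to 59.1%, and the median percentile from 27.5 to 33.2, over these omissions.

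With lists of equal length there were 1299 members, a gene-body share of 54.6%, a median percentile of 51.1 and 6 genes with 3 or more members. With −log10 q of at least 5 in every list the mirror set held 421 peaks, and members had a gene-body share of 54.6% and a median percentile of 41.6. Asking for 3 of 3 lists left 323 members and 79 mirror peaks, a median percentile of 36.8 and 0 genes with 3 or more members. With protein-coding genes only the gene-body share was 53.0%. Chosen after the data were seen, a −log10 q of at least 5 in the calling lists only left 761 members and 187 mirror peaks, and at least 10 left 68 and 21. Within 10 kb, genes with a member numbered 2 for enterocyte, 2 secretory, 1 cell cycle, 3 transcription factor, 1 AP-1 and ARID, 2 leukocyte and 1 stromal, endothelial and neural genes. The other 61 of 97 recomputed values moved by at most 1.5 times for a count and less than the counting interval or the spread between lists for a share. No paired analysis was possible because the result comes from no test. Median summit pileups of 13 to 18 reads limit what a missing call shows, and the cause of these changes was not tested.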
